A study of Mus musculus with 2 samples.

Results

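The cells described here are brain endothelial barcodes that carry artery markers, 67 of 711 endothelial barcodes in 2 single-cell RNA libraries. An endothelial barcode became a member when it held at least 4 unique molecular identifiers (UMIs, one per captured transcript) summed over Gkn3, Bmx, Sema3g, Vegfc and Fbln5. The library labelled IL34LacZ/LacZ gave 25 members among 273 endothelial barcodes, and the library labelled IL34LacZ/+ gave 42 among 438. Endothelial barcodes had been chosen first, as those with at least 1000 UMIs, at least 500 genes, at most 15% mitochondrial UMIs and at least 0.5% of UMIs from Cldn5, Flt1, Abcb1a, Slco1a4, Cdh5 and Pecam1. They also had under 2% Ttr, under 5% haemoglobin and under 1.5% ribosomal protein UMIs. The label given to these cells is arterial brain endothelium, and they are called artery-marker barcodes below because 21 of the 67 held only 1 of the 5 markers, and in only 7 of these did a list of other arterial genes exceed a list of venous genes.

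Both libraries were made from astrocytes and endothelial cells sorted from adult mouse brain. One came from IL34LacZ/LacZ mice, whose Il34 alleles both carry a LacZ insertion and which the submitters call the knockout. The other came from IL34LacZ/+ mice, which the submitters treat as wild type although they carry 1 LacZ allele. There was 1 library per genotype. The sources used here do not give the sort markers, the age beyond adult, the sex or the number of mice behind each library. A difference between the genotypes therefore cannot be told apart from a difference between libraries, and no test, p-value or replicate error was possible. Intervals below are 95% intervals that cover counting error only.

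Endothelium of brain arteries differs from that of the capillaries and veins it feeds. Notch signalling, with ligands such as Dll4 and Jag1 and targets such as Hey1, maintains arterial identity, and the arterial wall is rich in elastic fibres to which endothelial cells contribute. Capillary endothelium carries much of the nutrient transport of the blood-brain barrier, and venous endothelium carries more of the leukocyte adhesion machinery. Interleukin-34 is a ligand of the Csf1 receptor, which microglia depend on.

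Il34, the targeted gene, was not lower in the library labelled IL34LacZ/LacZ. It had 292 UMIs, or 7.96 CPM (UMIs per 1000000 UMIs), over the 5400 barcodes of the library labelled IL34LacZ/LacZ, against 176 UMIs and 6.6 CPM over the 3901 barcodes of the library labelled IL34LacZ/+. The position of the insertion relative to the counted end of the transcript is unknown here, so this count does not check the genotype, and the libraries are named by their labels throughout. In the artery-marker barcodes Il34 had 0 UMIs and 1 UMI. The libraries shared 8 barcodes of all listed and no artery-marker barcode.

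The 5 markers were, as background, genes of unlike function. Gkn3 encodes a secreted gastrokine known as an artery marker in mouse brain endothelium, Bmx a Tec-family tyrosine kinase of arterial endothelium, Sema3g a secreted semaphorin, Vegfc a ligand of the lymphatic growth factor receptor Flt4, and Fbln5 a matrix protein of elastic fibres. In the GRCm38 annotation (GENCODE M21) Gkn3 lies on the minus strand at chr6:87383256-87388935, Bmx on the minus strand at chrX:164192842-164258193 and Sema3g on the plus strand at chr14:31217860-31230352. Vegfc lies on the plus strand at chr8:54077606-54187096 and Fbln5 on the minus strand at chr12:101746565-101819055. Gkn3 and Bmx were the markers least detected outside these barcodes with other cell classes included. In other endothelial barcodes alone, Fbln5 had fewer UMIs than Bmx, with 0 and 2 against 3 and 28. The promoter windows of Gkn3, Bmx and Sema3g are shown because these genes were counted together in the same cells. Each runs 5′ to 3′ on the gene's strand over 250 bases before and 50 bases after the RefSeq start in GRCm38.p6, at chr6:87388886-87389185 (minus) for Gkn3, chrX:164258144-164258443 (minus) for Bmx and chr14:31217623-31217922 (plus) for Sema3g. Capitals mark TGGGAA or its reverse complement TTCCCA, the core letters bound by Rbpj, the DNA-binding factor of the Notch pathway.
Gkn3: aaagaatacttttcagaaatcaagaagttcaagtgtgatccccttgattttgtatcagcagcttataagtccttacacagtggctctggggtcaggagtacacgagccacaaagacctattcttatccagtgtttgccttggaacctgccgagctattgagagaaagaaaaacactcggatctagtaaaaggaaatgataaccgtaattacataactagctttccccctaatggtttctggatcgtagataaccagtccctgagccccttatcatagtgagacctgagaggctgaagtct
Bmx: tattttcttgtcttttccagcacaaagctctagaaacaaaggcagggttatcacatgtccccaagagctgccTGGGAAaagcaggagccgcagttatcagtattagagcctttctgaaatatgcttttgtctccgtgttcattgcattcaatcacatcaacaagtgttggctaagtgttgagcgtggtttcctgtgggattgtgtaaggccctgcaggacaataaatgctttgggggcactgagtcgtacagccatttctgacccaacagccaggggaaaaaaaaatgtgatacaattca
Sema3g: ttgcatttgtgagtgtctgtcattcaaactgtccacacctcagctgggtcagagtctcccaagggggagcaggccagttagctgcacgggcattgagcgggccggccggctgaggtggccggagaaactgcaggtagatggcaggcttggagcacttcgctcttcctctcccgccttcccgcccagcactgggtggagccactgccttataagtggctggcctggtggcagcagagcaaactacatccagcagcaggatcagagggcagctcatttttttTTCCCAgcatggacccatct
The motif occurred in the Bmx and Sema3g windows and not in this Gkn3 window. Vegfc, also counted in the same cells but not shown, had a window without the motif. Fbln5, not shown either, had a window with it at chr12:101819070-101819369 and a window without it at chr12:101818435-101818734. Searched on both strands, the motif occurred in 8397 of 32851 windows of the same length in the table, or 25.6%. Of the 15 genes named below as highest in artery-marker barcodes, 10 had a window and 7 of those held the motif in at least 1 window, as did 7651 of the 27025 genes in the table (28.3%). These are matches of letters, and no binding was measured.

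Artery-marker barcodes made up 9.16% of endothelial barcodes in the library labelled IL34LacZ/LacZ (Clopper-Pearson interval 6.01 to 13.2%) and 9.59% in the library labelled IL34LacZ/+ (7.0 to 12.7%). The difference was -0.43 percentage points, with a Newcombe interval of -4.88 to 4.39. The rule counts UMIs, so it finds a deep barcode more easily than a shallow one. Members had a median of 6359 UMIs in the library labelled IL34LacZ/LacZ and 7786.5 in the library labelled IL34LacZ/+, against 4736.5 and 4001.5 in the other endothelial barcodes. With every barcode thinned to 4000 UMIs, the shares were 8 of 158 (5.06%, 2.21 to 9.73%) and 24 of 234 (10.3%, 6.68 to 14.9%). Thinning left out 115 and 204 shallower endothelial barcodes, and the same deep barcodes gave 10.8% and 15.4% before it. The thinned difference was -5.19 points with an interval of -10.6 to 0.69, so at matched depth the share was lower in the library labelled IL34LacZ/LacZ by an amount whose interval included 0.

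The markers themselves chose the members, so their values are a description. Summed marker UMIs per member had a lowest value of 4, a median of 6 and a highest value of 32 in the library labelled IL34LacZ/LacZ, against 4, 12 and 106 in the library labelled IL34LacZ/+. Gkn3 had 15 UMIs in 6 members of the library labelled IL34LacZ/LacZ and 76 UMIs in 20 members of the library labelled IL34LacZ/+, with 1 and 3 UMIs in all other endothelial barcodes. Bmx had 55 UMIs in 13 members and 185 in 32, with 3 and 28 UMIs in the other endothelial barcodes. The rule itself kept these counts low outside the members. Sema3g was less selective, with 27 UMIs in 9 members and 74 in 23, against 33 and 31 UMIs in the other endothelial barcodes. Vegfc carried most of the selection, with 148 UMIs in 21 members and 470 in 40, while Fbln5 added 9 UMIs in 4 members and 38 in 9. Vegfc led the count in 15 of 25 members of the library labelled IL34LacZ/LacZ and in 28 of 42 of the library labelled IL34LacZ/+. At the edge of the rule, 6 and 5 members held exactly 4 marker UMIs, and 4 and 7 endothelial barcodes just outside it held 3.

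**Figure D1:**
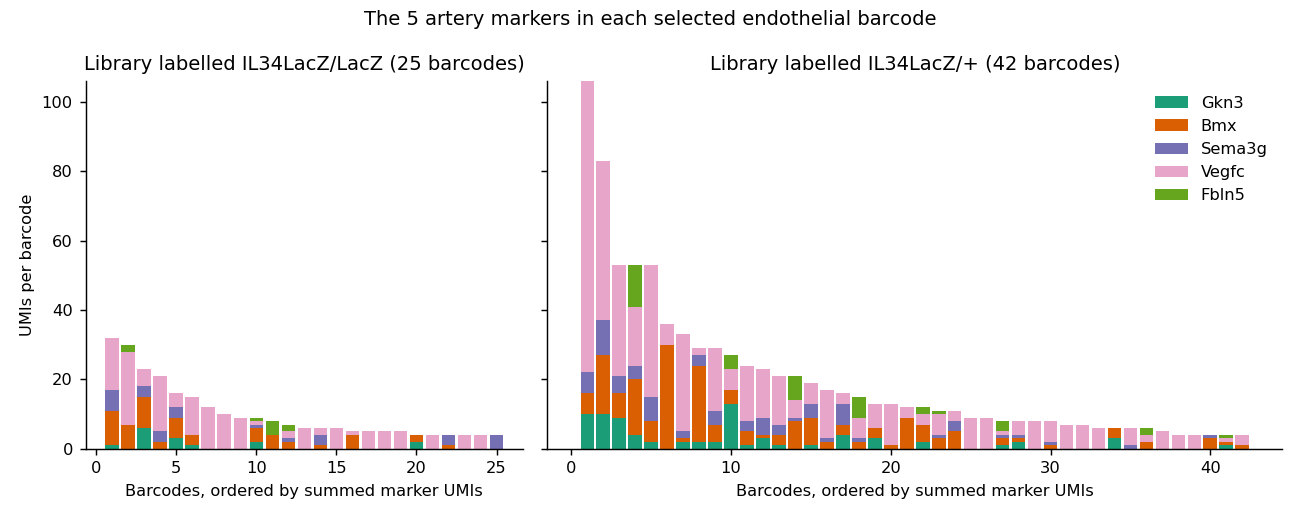
UMIs of the 5 artery markers in each artery-marker barcode (1 bar per barcode, y axis in UMIs, x axis ordered by the summed count), with the library labelled IL34LacZ/LacZ on the left and the library labelled IL34LacZ/+ on the right. Bars reach 32 UMIs on the left and 106 on the right, and Vegfc makes up the whole bar in 20 of the 67 barcodes.

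The members fell into a larger set with several markers and a smaller set with Vegfc alone, and genes outside the rule differed between them. At least 2 of the 5 markers were present in 46 members, 13 in the library labelled IL34LacZ/LacZ and 33 in the library labelled IL34LacZ/+. In 21 members only 1 marker was present, 12 and 9 in the libraries in the same order, and in 20 of these it was Vegfc. One-marker members were 48% of members in the library labelled IL34LacZ/LacZ (27.8 to 68.7%) and 21.4% in the library labelled IL34LacZ/+ (10.3 to 36.8%), a difference of 26.6 points with an interval of 1.18 to 50.1. The markers chose the members, so these shares and their difference are a description. Barcodes of 1 library per genotype are not replicates, and the interval does not test a difference between genotypes. Depth was similar, with a median of 7825.5 UMIs in members with several markers and 6751 in one-marker members.

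Arterial and venous genes that were not in the rule went opposite ways between these sets. A list of 28 other arterial identity genes had a median of 65.1 UMIs per 10000 UMIs in members with several markers, against 17.1 in one-marker members. A list of 11 venous genes had medians of 4.81 and 47.3 on the same scale. The arterial list exceeded the venous list in 43 of the 46 members with several markers and in 7 of the 21 one-marker members. At least 4 UMIs summed over Il1r1, Vcam1, Slc38a5, Nr2f2 and Lcn2 were present in 10 of the 46 and in 15 of the 21. In the rest of the endothelium the arterial list had 2594 CPM in the library labelled IL34LacZ/LacZ and 2839 CPM in the library labelled IL34LacZ/+, and one-marker members had 2173 and 2084 CPM. Members with several markers had 4645 and 5897 CPM. Summed over barcodes, the one-marker members were therefore below the other endothelial barcodes for arterial genes in both libraries. They were a mixed set, since 5 of 12 in the library labelled IL34LacZ/LacZ and 1 of 9 in the library labelled IL34LacZ/+ lay above the summed level of the other endothelial barcodes, against 11 of 13 and 29 of 33 members with several markers.

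**Figure D2:**
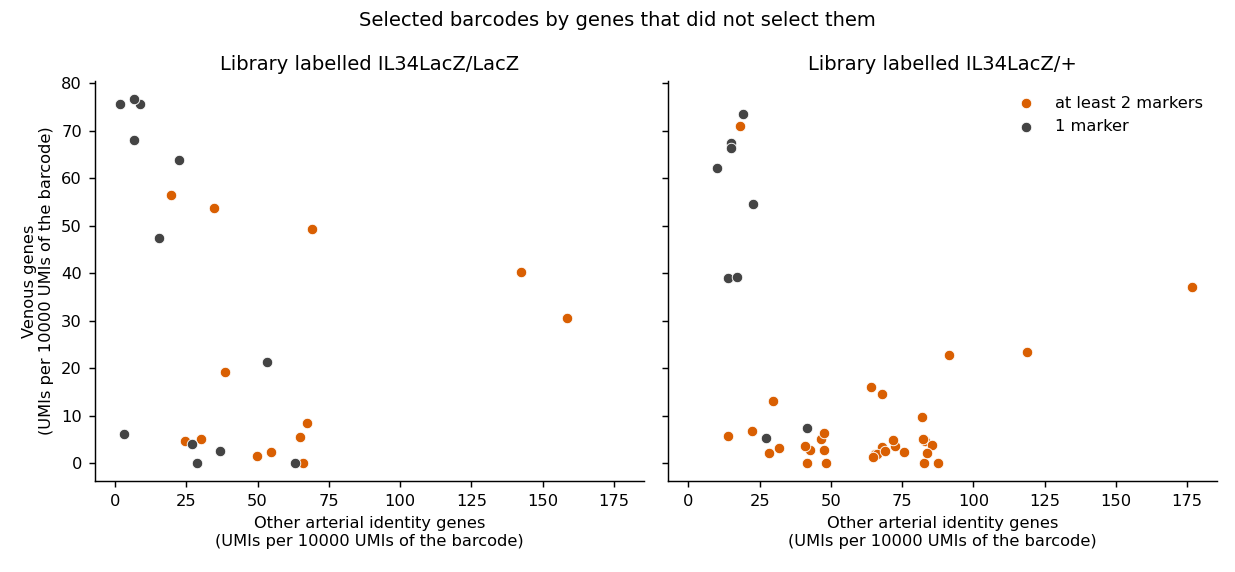
Each artery-marker barcode by its UMIs of 28 other arterial identity genes (x axis) and of 11 venous genes (y axis), both per 10000 UMIs of the barcode, with the library labelled IL34LacZ/LacZ on the left and the library labelled IL34LacZ/+ on the right. Orange points hold at least 2 of the 5 markers and dark points 1 marker; 15 of the 21 dark points carry at least 4 UMIs of 5 venous genes, against 10 of the 46 orange points.

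Single genes showed the same division. Eln, the elastin gene, had 503 CPM in members with several markers and 84.5 CPM in one-marker members, both libraries together, a log2 ratio of 2.57 (1.79 to 3.47). Prdm16, a transcription factor of arterial endothelium, had 122 UMIs against 3, or 317 and 18.1 CPM, a log2 ratio of 4.13 (2.55 to 6.43). Hey1, a Notch target and transcriptional repressor, had 36 UMIs against 0. Prdm16 and Hey1 were thus rarely or never counted in one-marker members. Mgp, which encodes an inhibitor of calcification, had 107 UMIs against 4, Stmn2, a microtubule regulator, 53 against 1, and the endothelin gene Edn1 159 against 9. In the other direction Il1r1, the interleukin-1 receptor, had 327 CPM in members with several markers and 1093 CPM in one-marker members, a log2 ratio of -1.74 (-2.08 to -1.40). Slc38a5, an amino acid transporter of venous endothelium, gave -2.92 (-3.99 to -1.96), and Nr2f2, the transcription factor of venous identity also called COUP-TFII, -1.92 (-2.83 to -1.05). Vwf, the von Willebrand factor gene, gave -1.32 (-1.66 to -0.98). Col6a6, a collagen VI chain, had 3 UMIs against 63.

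Endothelial barcodes outside the rule that held at least 4 UMIs of the 5 venous genes, 46 in the library labelled IL34LacZ/LacZ and 29 in the library labelled IL34LacZ/+, served as a venous comparison. Their venous list stood at 3583 and 2715 CPM, against 3768 and 4106 CPM in one-marker members and 2425 and 833 CPM in members with several markers. Since those comparison barcodes were chosen on 5 of the 11 venous genes, their level is a description. The high venous value of members with several markers in the library labelled IL34LacZ/LacZ rested in part on 1 barcode, which held 92.0% of their Il1r1 UMIs.

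**Figure D3:**
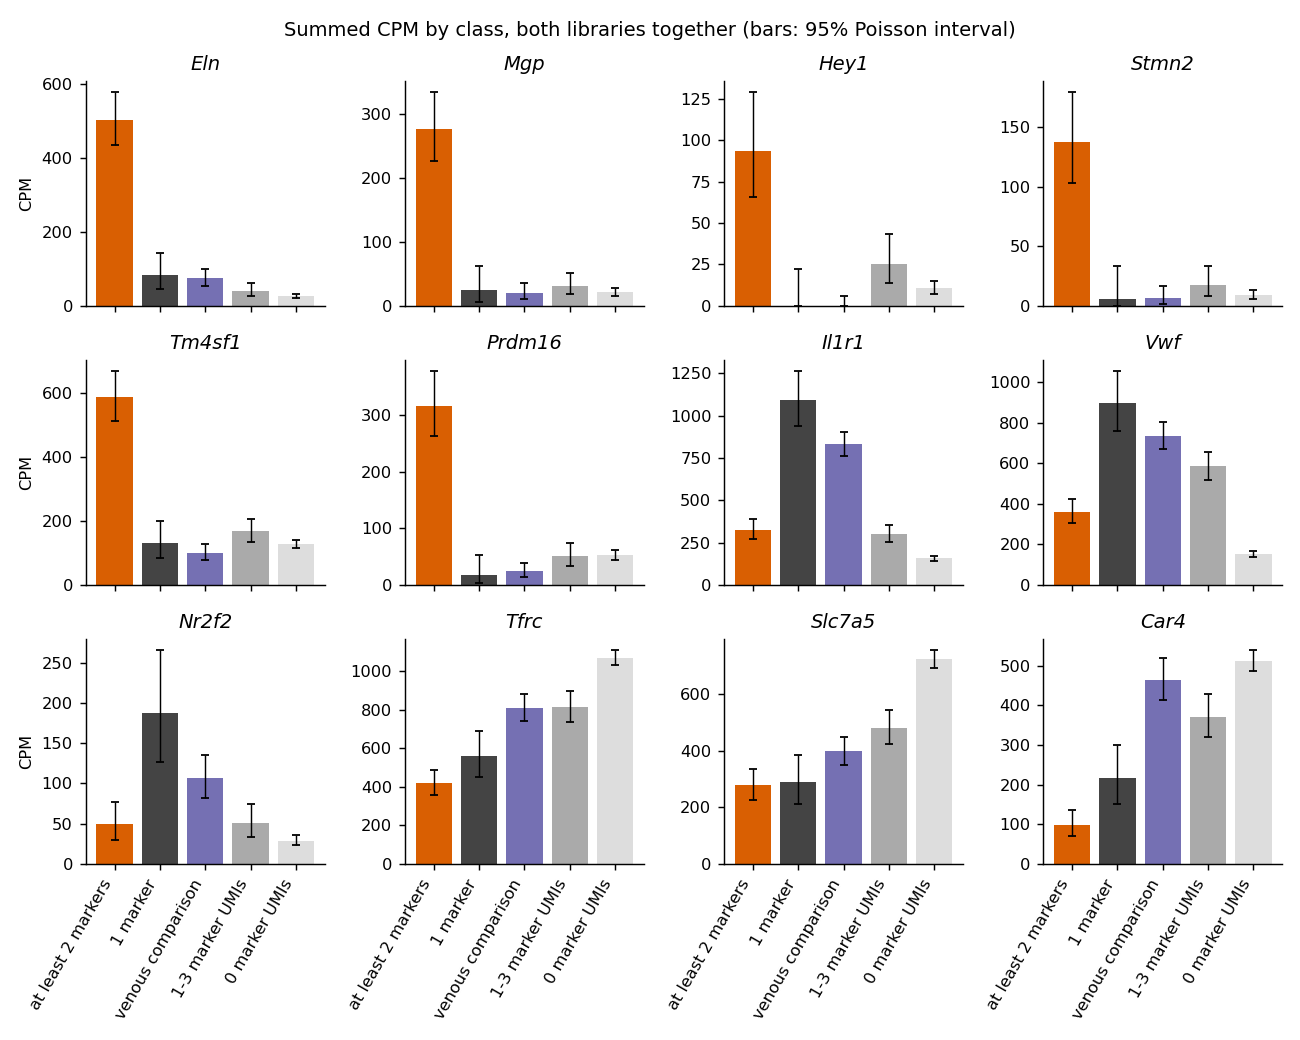
CPM of 12 genes, both libraries summed, in members with at least 2 markers, members with 1 marker, venous comparison barcodes, and endothelial barcodes with 1 to 3 or 0 marker UMIs (bars: exact 95% Poisson interval; the venous comparison overlaps the last 2 classes). Eln, Mgp, Hey1, Stmn2, Tm4sf1 and Prdm16 are highest in members with at least 2 markers, Il1r1, Vwf and Nr2f2 are highest in one-marker members, and Tfrc, Slc7a5 and Car4 are highest where no marker was counted.

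Genes outside the rule also set all artery-marker barcodes apart from the 248 and 396 other endothelial barcodes. Eln, Plcg2 and Mylk were among the genes higher in both libraries, and Slc7a5 was among those lower. Among 3694 genes with a mean of at least 50 CPM over the 4 sums, 64 (1.73%) exceeded a 2-fold ratio upward and 27 (0.731%) downward in both libraries. At 1.5-fold, the size used for gene lists, 148 (4.01%) were higher and 94 (2.54%) lower in both. The median ratio over all measured genes was 0.02 on the log2 scale within each library.

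Some genes of the extracellular matrix were among the highest. Eln (chr5:134702593-134747323, minus strand) had 383 CPM in artery-marker barcodes and 32.3 CPM in other endothelial barcodes of the library labelled IL34LacZ/LacZ, a log2 ratio of 3.57 (3.00 to 4.14). In the library labelled IL34LacZ/+ it had 375 and 26.0 CPM, a log2 ratio of 3.85 (3.37 to 4.35). The gap was thus alike in size in both libraries, with intervals that overlap. Col5a2, a collagen V chain, had log2 ratios of 2.94 and 4.78, and the laminin gene Lama3 had 1.18 and 2.39. Col6a6 had 2.31 and 6.85, and most of its UMIs came from one-marker members: in members with at least 2 markers its log2 ratios were -0.36 and 1.79. Mgp gave 3.51 and 2.96 but was over 10 times more abundant in fibroblast-marker barcodes, so it was not ranked. Of 27 elastic fibre and basement membrane genes 10 were measured, Eln and Lama3 were higher past 1.5-fold in both libraries, and none was lower.

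The other highest genes had unlike functions. Plcg2, a phospholipase C (chr8:117498291-117635142, plus strand), had 150 and 3.76 CPM in artery-marker and other endothelial barcodes of the library labelled IL34LacZ/LacZ, and 129 and 5.72 CPM in the library labelled IL34LacZ/+. Its log2 ratios were 5.32 (3.93 to 7.05) and 4.49 (3.52 to 5.59), so it was nearly absent from the other endothelial barcodes. Tiam2, an exchange factor for Rac, gave 5.01 and 3.32, Atp2b4, a plasma membrane calcium pump, 2.90 and 2.77, and the growth factor gene Pdgfa 2.67 and 2.58. Wnt5b, a Wnt ligand, gave 4.27 and 2.79, with 59.3% of its UMIs in the library labelled IL34LacZ/+ from 1 barcode. Eva1c (4.62 and 3.80), Epb41l4a (3.30 and 4.14), Stmn2 (3.33 and 3.23), Nipal2 (2.20 and 3.63) and the transcription factor gene Dach2 (2.51 and 2.77) completed the highest genes with Adgrg6, an adhesion receptor, at 2.63 and 2.19. Adgrg6 and Dach2 were higher in one-marker members (302 and 254 CPM) than in members with several markers (46.7 and 90.8 CPM).

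Mylk, myosin light chain kinase, had 135 and 16.5 CPM in artery-marker and other endothelial barcodes of the library labelled IL34LacZ/LacZ and 129 and 18.7 CPM in the library labelled IL34LacZ/+. Its log2 ratios were 3.02 (2.15 to 3.91) and 2.78 (2.12 to 3.45). It is also a gene of smooth muscle, and of the 8 smooth muscle markers 2 and 3 were detected in artery-marker barcodes of the 2 libraries. Acta2, Myh11, Myl9, Cnn1 and Lmod1 were at 0 in both. Besides Mylk, Tagln was detected in both libraries and Tpm2 in the library labelled IL34LacZ/+. The whole list stood at 140 and 134 CPM, little above Mylk alone, and the part of smooth muscle RNA in the Mylk value was not tested.

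**Figure D4:**
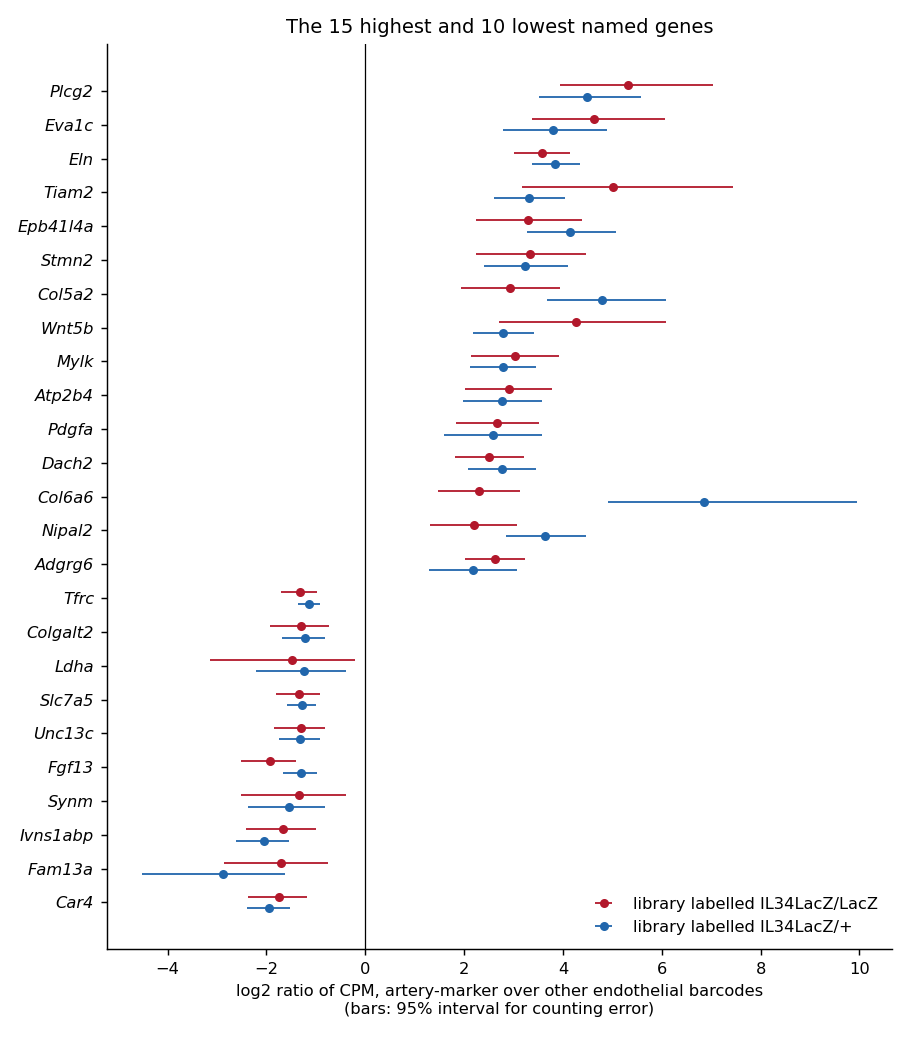
Log2 ratio of CPM between artery-marker barcodes and other endothelial barcodes for the 15 highest and 10 lowest genes chosen by size, each with the library labelled IL34LacZ/LacZ above the library labelled IL34LacZ/+ (bars: exact 95% interval for counting error). Every gene shown lies past 2-fold on the same side of 0 in both libraries; Col6a6 differs most between them, at 2.31 and 6.85.

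Genes that mark the capillary bed were lower in artery-marker barcodes. Of 12 capillary genes, all measured, 8 were lower past 1.5-fold in both libraries and none was higher, with a median log2 ratio of -0.88 taken as the ratio nearer 0. Car4, a carbonic anhydrase on capillary endothelium, had 135 and 450 CPM in artery-marker and other endothelial barcodes of the library labelled IL34LacZ/LacZ and 134 and 518 CPM in the library labelled IL34LacZ/+, log2 ratios of -1.74 (-2.37 to -1.18) and -1.95 (-2.40 to -1.53). Tfrc, the transferrin receptor that carries iron across the barrier (chr16:32608920-32632794, plus strand), gave -1.33 (-1.71 to -0.97) and -1.13 (-1.35 to -0.91). Ivns1abp gave -1.66 and -2.05. These genes were lower by a similar amount in each library. The capillary list as a whole had 10661 and 12959 CPM in the other endothelial barcodes of the libraries in the same order. Its level was 7291 and 8769 CPM in the venous comparison barcodes, which are part of those. One-marker members had 6011 and 6683 CPM, and members with several markers 6743 and 10386 CPM. Lower capillary genes were thus not particular to artery-marker barcodes.

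Transporters of the blood-brain barrier were lower in part. Of 24 transporters and barrier genes, all measured, 6 were lower past 1.5-fold in both libraries and none was higher, with a median of -0.32. All of those 6 but Slc7a5 are also among the lower capillary genes counted above. Slc7a5, the large neutral amino acid transporter, gave -1.34 (-1.80 to -0.91) and -1.28 (-1.58 to -1.0), Slc16a1, a lactate and ketone carrier, -1.11 and -1.32, and Slc22a8, an organic anion transporter, -0.98 and -0.75. The glucose transporter Slc2a1 did not share that direction, at 0.19 (-0.06 to 0.44) and 0.41 (0.22 to 0.58). The other genes among the 10 lowest were Fam13a (-1.71 and -2.87), the intermediate filament gene Synm (-1.35 and -1.55), Fgf13 (-1.93 and -1.31), the lactate dehydrogenase gene Ldha (-1.48 and -1.24), Colgalt2 (-1.29 and -1.23) and Unc13c (-1.31 and -1.32). In the library labelled IL34LacZ/LacZ 1 barcode held 94.1% of the Unc13c UMIs of the members, and another 53.3% of their Fgf13 UMIs.

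Arterial identity genes outside the rule were higher as a group, more so in members with several markers. Of the 28 listed, 15 were measured, 9 were higher past 1.5-fold in both libraries and Nrp1 was lower, with a median log2 ratio of 0.67. For members with at least 2 markers the background was 189 genes higher (5.1%) and 136 lower (3.67%) of 3705, and 14 of 17 measured arterial genes were higher, with a median of 1.10. The minimum CPM is a mean that includes the members' own sums, so a gene can be measured through its level in them. Hey1, Clu and Igfbp3 were measured only with at least 2 markers, so the counts of 14 and 9 cover different genes. Summed without that minimum, the list had 4645 and 5897 CPM in members with several markers, against 3539 and 5053 CPM over all members. The 3 ligand and receptor genes Efnb2 (ephrin-B2), Jag1 (a Notch ligand) and Unc5b (a netrin receptor) had log2 ratios of 1.55, 1.15 and 1.10 in the library labelled IL34LacZ/LacZ and 1.57, 1.91 and 1.87 in the library labelled IL34LacZ/+. The transcription factor gene Sox17 had 0.81 and 0.87 there and 0.26 and 0.64 over all members. Hey1 had 3.51 and 2.52 in members with several markers, from 11 and 25 UMIs. Nrp1, a semaphorin and VEGF co-receptor, was at -0.89 and -0.70.

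The counts for other gene groups are from members with several markers. There 5.1% of all measured genes were higher and 3.67% lower past 1.5-fold in both libraries. The lists overlap, since Jag1, Hey1, Efnb2, Edn3, Tgfb2 and Sox17 are also among the higher arterial identity genes above. Of 21 Notch pathway genes 12 were measured, and in members with several markers Notch1, Jag1, Hey1 and Efnb2 were higher past 1.5-fold in both libraries and the coactivator Maml3 was lower. The gap junction genes Gja4 and Gja5, which encode arterial connexins, had too few UMIs for a ratio: Gja4 had 0 and 1, and Gja5 had 1 and 6 in the members with 0 in the other endothelial barcodes of both libraries. Among 26 vascular tone genes 13 were measured in members with several markers. Edn1, Edn3 and the lipoxygenase gene Alox12 were higher and none was lower, while Nos3, which makes nitric oxide, stood at 0.05 and 0.07. Hey1 and Alox12 were measured only in members with several markers. Of 13 junction genes 11 were measured and F11r, encoding junctional adhesion molecule A, was higher. The inhibitory Smad gene Smad6 (2.41 and 1.51) and Tgfb2 (1.26 and 0.99) were higher among 14 measured genes of BMP and TGF-beta signalling, with none lower. Of 19 measured Wnt and beta-catenin genes Sox17 and Wnt5b were higher and Apcdd1, Nkd1 and Notum lower, and none of 14 measured interferon response genes passed 1.5-fold in both libraries.

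The venous list shows how far the one-marker members weighed on the whole set. Of 11 venous genes 8 were measured, and over all members 6 were higher past 1.5-fold in both libraries, among them Nr2f2, Il1r1, Vcam1, Adgrg6 and Vwf, with a median of 1.07. In members with several markers 2 were higher, Il1r1 and the adhesion molecule gene Vcam1, and Slc38a5 was lower. For Il1r1 1 barcode held 92.0% of the UMIs of these members in the library labelled IL34LacZ/LacZ. In members with under 4 UMIs of the 5 venous genes, a limit added after these values were seen, the smaller log2 ratio of Il1r1 was -1.93 and that of Nr2f2 -1.14. That limit uses both genes, so their values there are a description.

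The genes whose counts followed the summed markers most closely across endothelial barcodes overlapped with the highest genes, as the choice of members on that same sum makes likely. Pearson's r between log counts per 10000 UMIs, over 273 barcodes in the library labelled IL34LacZ/LacZ and 438 in the library labelled IL34LacZ/+, was 0.55 and 0.49 for Mylk, 0.49 and 0.51 for Plcg2, 0.44 and 0.46 for Eln and 0.42 and 0.51 for Epb41l4a. Sncaip (0.39 and 0.36), Atp2b4 (0.38 and 0.35), Lama3 (0.35 and 0.45), Prdm16 (0.34 and 0.40), Cp, encoding ceruloplasmin (0.34 and 0.33), and Eva1c (0.43 and 0.31) followed. The points share library and depth, and r is a description.

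Genes with a mean of at least 100 CPM over the artery-marker sums of both libraries numbered 2132 for the comparison between genotypes. Of these, 63 (2.95%) exceeded a 2-fold ratio upward and 58 (2.72%) downward in the library labelled IL34LacZ/LacZ, with a median log2 ratio of 0.03. At 1.5-fold 263 (12.3%) were higher and 209 (9.8%) lower. The same genes in the other endothelial barcodes, with several times more cells, gave 11 higher (0.516%) and 16 lower (0.75%) past 2-fold, and 48 higher (2.25%) and 35 lower (1.64%) past 1.5-fold. Because 48% of the members in the library labelled IL34LacZ/LacZ and 21.4% in the library labelled IL34LacZ/+ had 1 marker, ratios are also given for members with at least 2 markers, where 124 (5.81%) were higher and 100 (4.68%) lower past 2-fold of 2135. At 1.5-fold those counts were 356 (16.7%) and 285 (13.3%).

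Some arterial genes were lower in the library labelled IL34LacZ/LacZ. Tm4sf1, a tetraspan membrane protein of endothelium (chr3:57285611-57301988, minus strand), had 207 CPM in the library labelled IL34LacZ/LacZ and 584 CPM in the library labelled IL34LacZ/+, a log2 ratio of -1.50 (-2.02 to -1.0). In members with at least 2 markers it was -1.45 (-2.07 to -0.87), and in the other endothelial barcodes -0.07 (-0.35 to 0.22). Tm4sf1 was thus lower in the artery-marker barcodes of the library labelled IL34LacZ/LacZ with and without the one-marker members, and its interval outside them included 0. Unc5b gave -1.31 (-2.05 to -0.63) over all members, -1.28 (-2.17 to -0.49) with at least 2 markers and -0.51 (-0.90 to -0.13) in the other endothelial barcodes. Edn1, which is on the vascular tone list and not on the arterial identity list, gave -1.31 (-1.93 to -0.74), -1.04 (-1.72 to -0.41) and -0.19 (-0.53 to 0.15) in the same order. In the library labelled IL34LacZ/+ 1 barcode held 26.8% of the Edn1 UMIs of the members, so Edn1 was not ranked. Of the 28 other arterial identity genes 13 were measured, 3 were lower past 1.5-fold, none was higher and the median was -0.44. By that size 9.8% of all measured genes were lower and 12.3% higher. With at least 2 markers the median over 14 measured genes was -0.21, so part of the list moved toward 0. Among these 14 genes 4 were lower (Jag2, Unc5b, Edn3 and Tm4sf1) and none higher, beside 13.3% lower and 16.7% higher over all measured genes.

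Several arterial genes were near 0. Eln had 383 and 375 CPM, a log2 ratio of 0.03 (-0.40 to 0.45), and Mgp had -0.35 (-0.99 to 0.25), so both intervals over all members included 0. With at least 2 markers Eln was at 0.49 (0.05 to 0.93) and Efnb2 at -0.05. Of 59 genes that were more than 2-fold higher in artery-marker than in other endothelial barcodes and measured here, 27 were below 0, 11 lower past 1.5-fold, 12 higher past 1.5-fold, and the median was 0.06. The median of the genes that set these barcodes apart was therefore not below 0. The markers of the rule were lower in the sums, at -1.45 for Gkn3, -0.86 for Bmx, -0.57 for Sema3g and -0.78 for Vegfc, which chose the members and are a description. Dll4, a Notch ligand, had 3 and 32 UMIs and the connexin gene Gja1, which is also an astrocyte marker, 1 and 37. The whole astrocyte marker list stood at 124 CPM in the artery-marker barcodes of the library labelled IL34LacZ/LacZ and 352 CPM in those of the library labelled IL34LacZ/+, and its part in the Gja1 count was not tested.

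The shear-responsive genes Klf2 and Klf4 and the BMP target Id3 were also lower. Klf2 and Klf4 encode transcription factors induced by blood flow and had log2 ratios of -0.90 (-1.55 to -0.29) and -1.0 (-1.68 to -0.36) over all members. With at least 2 markers they had -1.48 (-2.54 to -0.56) and -2.63 (-4.30 to -1.35), from 11 and 5 UMIs in the library labelled IL34LacZ/LacZ, and in the other endothelial barcodes -0.26 and -0.38. Their list of vascular tone and shear genes did not move as a group. Of 12 measured, Edn1, Klf2 and Klf4 were lower past 1.5-fold, Piezo1 and Thbd were higher, and the median was -0.02. A single barcode held 50% of the Thbd UMIs on the higher side. With at least 2 markers 5 of 11 were lower and Piezo1, Cav1 and Cav2 higher, with a median of -0.04. Id3, a target of BMP signalling, had 51.7 and 193 CPM, a log2 ratio of -1.90 (-3.02 to -0.93), against 0.02 (-0.25 to 0.28) in the other endothelial barcodes. Id3 was over 10 times more abundant in fibroblast-marker barcodes, and fibroblast markers stood at 15.5 CPM in the artery-marker barcodes of the library labelled IL34LacZ/LacZ and 72.7 CPM in those of the library labelled IL34LacZ/+. Their part in the Id3 value was not tested. Id1 was at -0.20 (-0.80 to 0.37) over all members and -1.11 (-2.08 to -0.24) with at least 2 markers. Of 12 measured genes of BMP and TGF-beta signalling, Id3 was lower past 1.5-fold over all members and none was higher. Over all measured genes 9.8% were lower and 12.3% higher, so 1 of 12 lower is near that share. With at least 2 markers Smad1, Smad7, Id1 and Id3 were lower and Acvrl1 was higher, with a median of -0.12, where 13.3% of all measured genes were lower and 16.7% higher. Lama3 had 155 and 344 CPM, a log2 ratio of -1.15 (-1.77 to -0.56).

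Barrier genes leaned the same way. Of 23 measured blood-brain barrier genes 6 were lower past 1.5-fold and 3 higher, with a median of -0.26. Of 10 measured capillary genes 5 were lower and none higher, with a median of -0.55. These 5 (Mfsd2a, Tfrc, Spock2, Slco1c1 and Lrp8) are all among the 6 lower barrier genes, so the 2 counts are not separate results. Over all measured genes 9.8% were lower and 12.3% higher past 1.5-fold. The same genes had medians of -0.17 and -0.30 in the other endothelial barcodes, where none was lower past 1.5-fold. There only 1.64% of all measured genes were lower by that much, so the counts of the 2 classes are not on equal terms. Slc7a1, the cationic amino acid transporter, gave -1.90 (-2.34 to -1.49), with 40.3% of the UMIs in the library labelled IL34LacZ/+ from 1 barcode and -1.47 without the barcode with most UMIs. The tight junction gene Cldn5, which also helped choose endothelial barcodes, had 1200 and 1875 CPM, a log2 ratio of -0.64 (-0.87 to -0.43), and -0.29 (-0.37 to -0.21) in the other endothelial barcodes. Of 11 junction genes 2 were higher past 1.5-fold over all members, Esam among them, and Cldn5 was the gene lower by that much, also among members with several markers. These counts are near the 12.3% higher and 9.8% lower over all measured genes.

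Interferon response genes were lower past 1.5-fold in 4 of 10 measured and higher in none, beside 9.8% lower and 12.3% higher over all measured genes. Their median was -0.37, and -0.51 with at least 2 markers. Ly6c1, a surface antigen of endothelium, had 497 and 883 CPM, a log2 ratio of -0.83 (-1.18 to -0.50), and 0.11 (-0.03 to 0.25) in the other endothelial barcodes. Oasl2, an interferon-induced gene, had 11 and 62 UMIs and a log2 ratio of -1.61 (-2.68 to -0.67). The corresponding median in the other endothelial barcodes was 0.19. Set against other endothelial barcodes of its own library, none of 15 measured interferon genes was higher and 4 were lower past 1.5-fold in the library labelled IL34LacZ/LacZ, where 12.7% and 12.3% of all measured genes were. In the library labelled IL34LacZ/+ 9 were higher and none lower, where 9.66% and 8.36% of all measured genes were. The difference between the libraries was not tested.

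Venous genes were higher in the library labelled IL34LacZ/LacZ. Of 7 measured 6 were higher past 1.5-fold and none lower, with a median of 1.17, and 5 of the same 7 were higher in the other endothelial barcodes, with a median of 0.89. Il1r1 had 843 and 402 CPM in artery-marker barcodes, a log2 ratio of 1.07 (0.73 to 1.40), and 1.82 (1.56 to 2.09) in the other endothelial barcodes. Vcam1 gave 0.97 (0.39 to 1.55) and 2.99 (2.45 to 3.57), and -1.0 in members with under 4 UMIs of the 5 venous genes, of which it is one. Venous genes were thus higher in the other endothelial barcodes of this library as well. In the library labelled IL34LacZ/LacZ 1 barcode held 42.3% of the Il1r1 UMIs of the members.

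The genes with the largest ratios, chosen by size, spanned unlike functions. Klhl4, a Kelch-family gene, had 248 CPM in the library labelled IL34LacZ/LacZ and 53.1 CPM in the library labelled IL34LacZ/+, a log2 ratio of 2.23 (1.43 to 3.07), and 0.23 in the other endothelial barcodes. Ehbp1 gave 1.54 (1.02 to 2.06), and Bcr, which encodes a regulator of small GTPases, 1.55 (0.67 to 2.46). Armh3 (1.51), Tmcc3 (1.35), Fam118b (1.34), Gse1 (1.31), the clathrin-uncoating kinase gene Gak (1.29), Dcun1d3 (1.24) and Eif2ak4 (1.20), the amino acid sensing kinase, made up the other 7 of the 10 highest. Gak changed sign when every barcode was thinned to 4000 UMIs, to -0.29. On the lower side, besides Tm4sf1 and Oasl2, were the corepressor gene Runx1t1 at -1.86 (-2.93 to -0.94), the MAP kinase phosphatase gene Dusp16 at -1.72 (-2.69 to -0.86), Pkia, a protein kinase A inhibitor, at -1.70, Plekhh2 at -1.66, Cadps2 at -1.59, Mbtd1 at -1.55, the telomere-binding gene Terf1 at -1.51 and Rin2, an exchange factor for Rab5, at -1.51. Of these 20 genes, Cadps2 moved most with the one-marker members, to -0.26 with at least 2 markers.

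**Figure D5:**
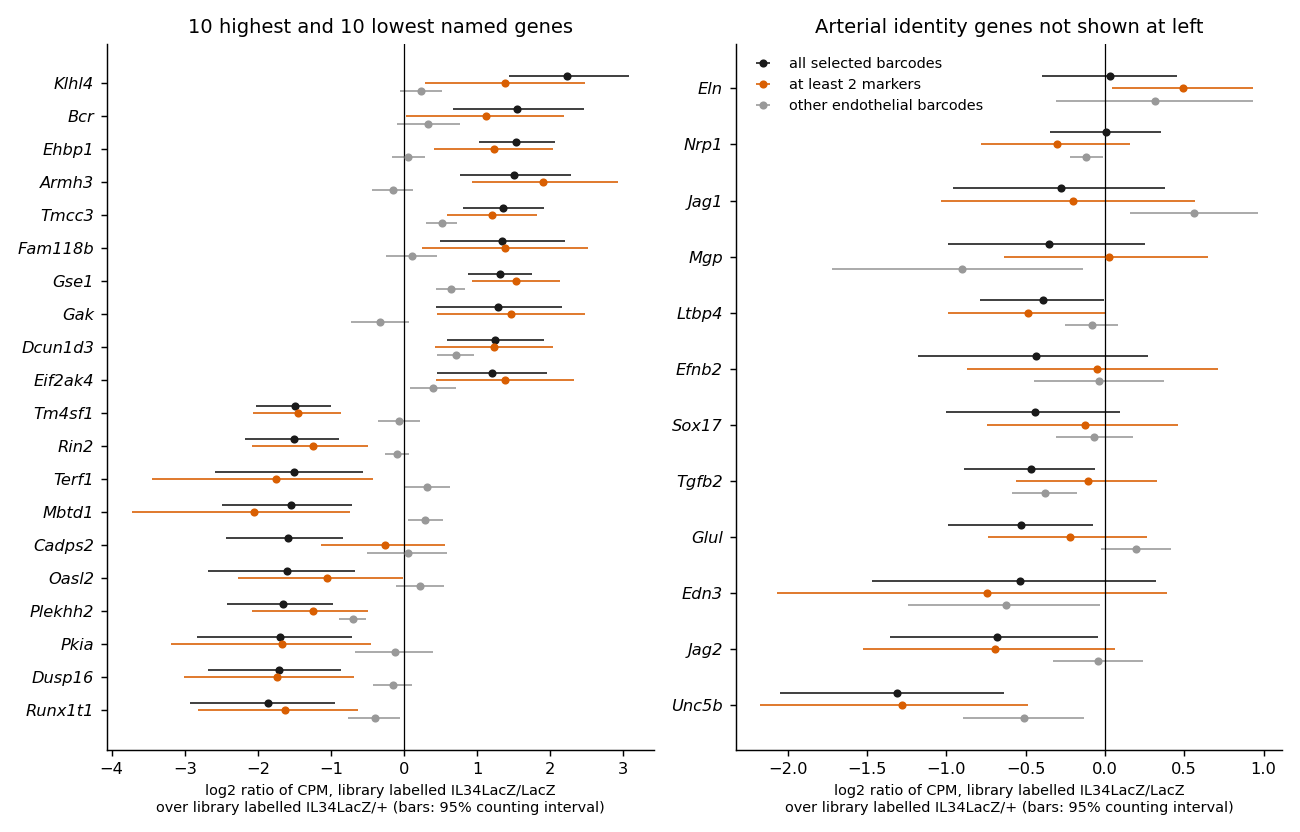
Log2 ratio of CPM between the library labelled IL34LacZ/LacZ and the library labelled IL34LacZ/+ in all artery-marker barcodes (black), in those with at least 2 markers (orange) and in other endothelial barcodes (grey), with exact 95% intervals for counting error. The left panel shows the 10 highest and 10 lowest genes chosen by size in the artery-marker barcodes and the right panel the other measured arterial identity genes, of which Unc5b lies lowest at -1.31 and Eln highest at 0.03.

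Markers of other cell types were also counted in artery-marker barcodes. Fibroblast markers had 15.5 CPM in artery-marker barcodes of the library labelled IL34LacZ/LacZ, where 1 of 8 genes was detected, and 72.7 CPM in those of the library labelled IL34LacZ/+, where all 8 were, against 7.52 and 9.87 CPM in the other endothelial barcodes. Pericyte markers had 36.2 and 16.8 CPM in artery-marker barcodes against 52.6 and 75.9 CPM. Neuron markers had 621 and 981 CPM against 318 and 699 CPM, with single artery-marker barcodes reaching 11923 and 13719 CPM. The part of fibroblast RNA in the collagen and elastin values was not tested. Scrublet, a doublet caller, marked no artery-marker barcode.

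Csf1, the other ligand of the Csf1 receptor, had 10 UMIs in the artery-marker barcodes of the library labelled IL34LacZ/LacZ and 33 in those of the library labelled IL34LacZ/+, or 51.7 and 92.2 CPM. Against the other endothelial barcodes its log2 ratios were -0.35 (-1.46 to 0.59) and 1.36 (0.72 to 1.98). The level was too low for the comparison between genotypes.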

How the data were processed

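Single-cell libraries were made from sorted astrocytes and endothelial cells, 1 per genotype. The authors deposited a matrix of UMI counts for each library. Per the file headers it came from Cell Ranger 7.1.0. Per the submitters' processing notes the build was GRCm38.p6 (mm10). Neither the annotation release nor any removal of free RNA is given in the sources used here. Kept barcodes numbered 1175 in the library labelled IL34LacZ/LacZ and 1668 in the library labelled IL34LacZ/+. The counts of the 67 members, 193298 and 357794 UMIs in all, were summed per library and divided by those totals to give CPM.

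Poisson, Clopper-Pearson, Newcombe and conditional binomial intervals (scipy 1.17.1) cover counting error only. No test across samples was possible. The code was tested on simulated data. Scrublet (scanpy 1.11.5) marked 8 and 22 kept barcodes (0.681% and 1.32%), which were removed only as an alternative. Free RNA was not corrected.

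Some list members are counted in their lists but not reported one by one here. Named genes were list members and, by size, the 15 highest and 10 lowest against other endothelial barcodes, by the ratio nearer 0 of both libraries, and the 10 highest and 10 lowest between genotypes in which no barcode held over 25% of the UMIs on the higher side. Mitochondrial, ribosomal protein, haemoglobin, Y-linked and unnamed genes and Xist were not ranked. Other genes of the X chromosome were ranked. Any gene with over 10 times the CPM in another marker class of the same library was also not ranked. Rule, members and lists were chosen with earlier results of these data known. Alternatives varied the rule, depth, weighting, minimum CPM and single barcodes. Gene positions are from GENCODE M21, which held 25461 of 25906 identifiers.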

Additional observations from a re-analysis of the deposited data

Results flagged for a closer look

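Among the named genes, 6 lay past 1.5-fold in opposite directions in the 2 libraries when artery-marker barcodes were set against other endothelial barcodes. The difference of the log2 ratios, the library labelled IL34LacZ/LacZ minus the library labelled IL34LacZ/+, was 1.99 for Klhl4, 1.67 for Armh3, -1.82 for Oasl2, -1.83 for Terf1 and -2.22 for Dll4. The neuronal gene Syt1 had a difference of 6.53, and 1 barcode held 98.0% of its UMIs in the artery-marker barcodes of the library labelled IL34LacZ/LacZ. With 1 library per genotype none of these differences was tested.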

How the results depend on the processing

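No paired analysis was possible because each genotype had 1 library. The share of artery-marker barcodes in the library labelled IL34LacZ/LacZ was 5.49% with at least 6 marker UMIs, 5.06% thinned to 4000 UMIs, 4.76% with at least 2 markers and 5.34% with under 4 venous UMIs, an alternative chosen after seeing the data, which also gave 6.6% in the library labelled IL34LacZ/+. The thinned difference was -5.19 points. Genes more than 2-fold higher than in other endothelial barcodes in both libraries numbered 111 thinned, 103 with equal weight per barcode, 109 and 34 at 0.5 and 2 times the minimum CPM, and 42 without the barcode with most UMIs of each gene. Those lower numbered 68 thinned, 41 with at least 6 marker UMIs, 54 with under 4 venous UMIs, 48 and 15 at 0.5 and 2 times the minimum, and 41 without that barcode. Between genotypes 116 were higher and 107 lower with at least 6 marker UMIs, 278 and 216 thinned, 124 and 100 with at least 2 markers, 149 and 121 with under 4 venous UMIs, 195 and 181 at 0.5 times and 21 and 11 at 2 times the minimum, and 31 were higher without that barcode. Thinning and the stricter rules left fewer counts in each sum, and the cause of these moves was not tested. Among ratios past 1.5-fold, those that changed sign against other endothelial barcodes were Col6a6 at -1.0 with at least 2 markers required and one-marker barcodes moved into the comparison, Il1r1 at -1.93, Nr2f2 at -1.14 and Nrp2 at -1.58 with under 4 venous UMIs, and Il1r1 at -0.28, Nrp2 at -0.33 and Cxcl12 at 0.41 against venous barcodes. In 29 further values the libraries came to differ in sign, Col5a2, Dach2, Nipal2, Adgrg6, Ldha and Vcam1 among them. Between genotypes sign changed for Slc38a5 at -2.89, Slc40a1 at -0.21 and Nkd1 at 0.28 with at least 6 marker UMIs. Thinned, it changed for Slc38a5 at -0.15, Gak at -0.29, Nr2f2 at -0.42, Plxnd1 at -1.74, Nkd1 at 0.36, Lrp8 at 0.10, Tfrc at 0.061, Kcnip4 at 2.58 and Rbfox1 at 1.58. It also changed for Vcam1 at -1.0 and Tfrc at 0.29 with under 4 venous UMIs, and for Syt1 at -1.13 without the barcode with most of its UMIs or without barcodes over 1% of other-cell markers. Of the other values of single genes, 3065 against other endothelial barcodes and 2242 between genotypes kept within their counting interval, and 441 and 231 moved beyond it. Among ratios under 1.5-fold, 15 and 156 values changed sign. Between genotypes, Tm4sf1 ranged from -1.55 to -1.04, Edn1 from -1.81 to -0.81 and Unc5b from -1.38 to -0.40, and against other endothelial barcodes the smaller Eln ratio of the 2 libraries ranged from 2.10 to 4.49.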
